A study of Mus musculus with 16 samples.

Results

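The genes described here are 29 lymphocyte markers: 14 T cell genes, 7 natural killer (NK) and cytotoxic genes, and 8 B and plasma cell genes. They come from a fixed list, and all 29 were found by mouse symbol among the 54838 genes of the deposited count table. RNA-seq was made from 16 pieces of mouse liver. Untreated mice gave 4 tumors (control tumor) and 4 samples of the liver beside them (control peri-tumor), and animals receiving a decoction of traditional Chinese medicine (TCM) gave the same tissues (TCM tumor and TCM peri-tumor, 4 libraries each). Every mouse gave 1 library of each tissue, so that 8 mice stand behind the 16 libraries. All of them, controls included, carry the genotype label HrasG12V, an activated Ras oncogene. The labels also state 3 months, and do not say of what. The carcinogen DEN is mentioned in the protocol text, and whether these animals received it is not stated. The transgene's promoter and what the decoction contained were not given in the labels. The study asked how the decoction acts against liver tumors. Markers of hepatocytes, the main liver cell, were abundant in every library (87412 to 218778 CPM summed over 7 genes).

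T cells recognise antigen through a receptor of alpha and beta chains that signals through the CD3 proteins, the kinase Lck and the kinase Zap70. NK cells and cytotoxic T cells kill by releasing perforin, which opens membranes, and granzymes, the proteases that enter through them. B cells carry membrane IgM with the signaling pair CD79A and CD79B. After activation B cells can switch from the mu heavy chain to gamma, alpha or epsilon chains, and can become plasma cells. Plasma cells secrete antibody, and join IgM and IgA into polymers with the J chain. The liver normally holds many NK cells and resident T cells and few plasma cells.

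Total counts ran from 13947483 to 16194224 per library, and most of the members were rare transcripts. Of the 29 members, 24 passed the filter on low counts and were tested, and Cd28, Il7r, Ncr1, Iglc2 and Mzb1 did not. Control mouse 4 stood apart: its peri-tumor library lay at 3.85 on the second principal component of all tested genes, where the other control peri-tumor libraries lay between -57.0 and -38.6 and the TCM peri-tumor libraries between 23.7 and 38.2. The tumor library of this mouse lay at -4.49, and the other control tumors between -28.7 and -19.2. Results that rest on control mice are also given without this mouse where a call changed. Its peri-tumor library was the control one nearest the TCM libraries on that component, so leaving it out favors larger treatment differences. Among all genes, calls between treatments went from 2091 to 3434 in peri-tumor tissue and from 1082 to 1877 in tumors without it. Calls gained in this way are not independent support. In bulk tissue, fewer cells of a type and less RNA per cell cannot be told apart.

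Levels between genes are compared per length, as FPKM (fragments scaled to transcript length and library size). Over the 16 libraries, Igkc, the kappa light chain constant region, was the most abundant member with a mean of 30.7 FPKM, followed by Ighm, the mu heavy chain, with 6.29 FPKM. Trbc2 had 1.88 FPKM, Zap70 1.68 FPKM and Jchain 1.51 FPKM, and these 3 do not differ beyond their spread over libraries. The other 24 members averaged between 0.0123 FPKM (Cd28) and 0.778 FPKM (Gzma). All further levels are CPM (counts scaled to library size), and group values are given as mean ± SD of 4 libraries in the order control peri-tumor, control tumor, TCM peri-tumor and TCM tumor.

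Summed by lineage, the light chain and plasma cell genes were higher in tumors, the NK and cytotoxic genes were lower in peri-tumor liver of TCM mice, and the set of B cell receptor and surface genes, 87.7% of it Ighm, was higher in TCM mice. The 4 light chain and plasma cell genes summed to 8.04 ± 2.22, 20.1 ± 2.21, 8.63 ± 2.11 and 50.4 ± 49.0 CPM. In control mice every tumor lay above every peri-tumor library, with a ratio of 1.90 to 3.96 within a mouse. In TCM mice the ratio ran from 1.0 to 16.1: TCM tumor 1 reached 117 CPM and TCM tumor 2 reached 57.4 CPM, while TCM tumors 3 and 4 had 11.8 and 15.4 CPM.

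The 14 T cell genes summed to 18.3 ± 4.44, 20.5 ± 6.53, 11.2 ± 1.21 and 23.9 ± 12.6 CPM. The T cell sum was lower in all 4 TCM peri-tumor libraries (10.2 to 12.3 CPM) than in any control peri-tumor library (12.6 to 23.2 CPM). Zap70 alone separated these groups (4.43 to 6.75 CPM in TCM and 7.64 to 9.98 CPM in control libraries). The separation of the sum is therefore not one of T cell genes in general. It was higher in tumor than in peri-tumor tissue in 4 of 4 TCM mice, and 38.3% of it was Zap70. The sum of the 5 CD3 and T cell receptor genes alone overlapped between the peri-tumor groups (1.40 to 6.55 CPM in control and 1.06 to 2.69 CPM in TCM libraries). That smaller sum was higher in the tumor in 3 of 4 TCM mice, with ratios of 0.662 to 7.58. The 7 NK and cytotoxic genes summed to 7.80 ± 4.40, 8.49 ± 3.78, 2.20 ± 0.601 and 5.12 ± 3.22 CPM. Their peri-tumor groups overlapped only through control peri-tumor 4, at 1.88 CPM, where the other 3 control libraries had 7.20 to 11.9 CPM and the TCM libraries 1.53 to 2.72 CPM. The 4 B cell receptor and surface genes summed to 11.2 ± 1.19, 9.40 ± 2.68, 22.5 ± 7.90 and 21.02 ± 11.8 CPM, with all 4 TCM peri-tumor libraries above all 4 control peri-tumor libraries. Without control mouse 4 the NK and cytotoxic sum of peri-tumor tissue differed between treatments by -2.15 on the log2 scale, against -1.83 with it. These sums were given no test, since the members were chosen with results of these data known.

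**Figure D1:**
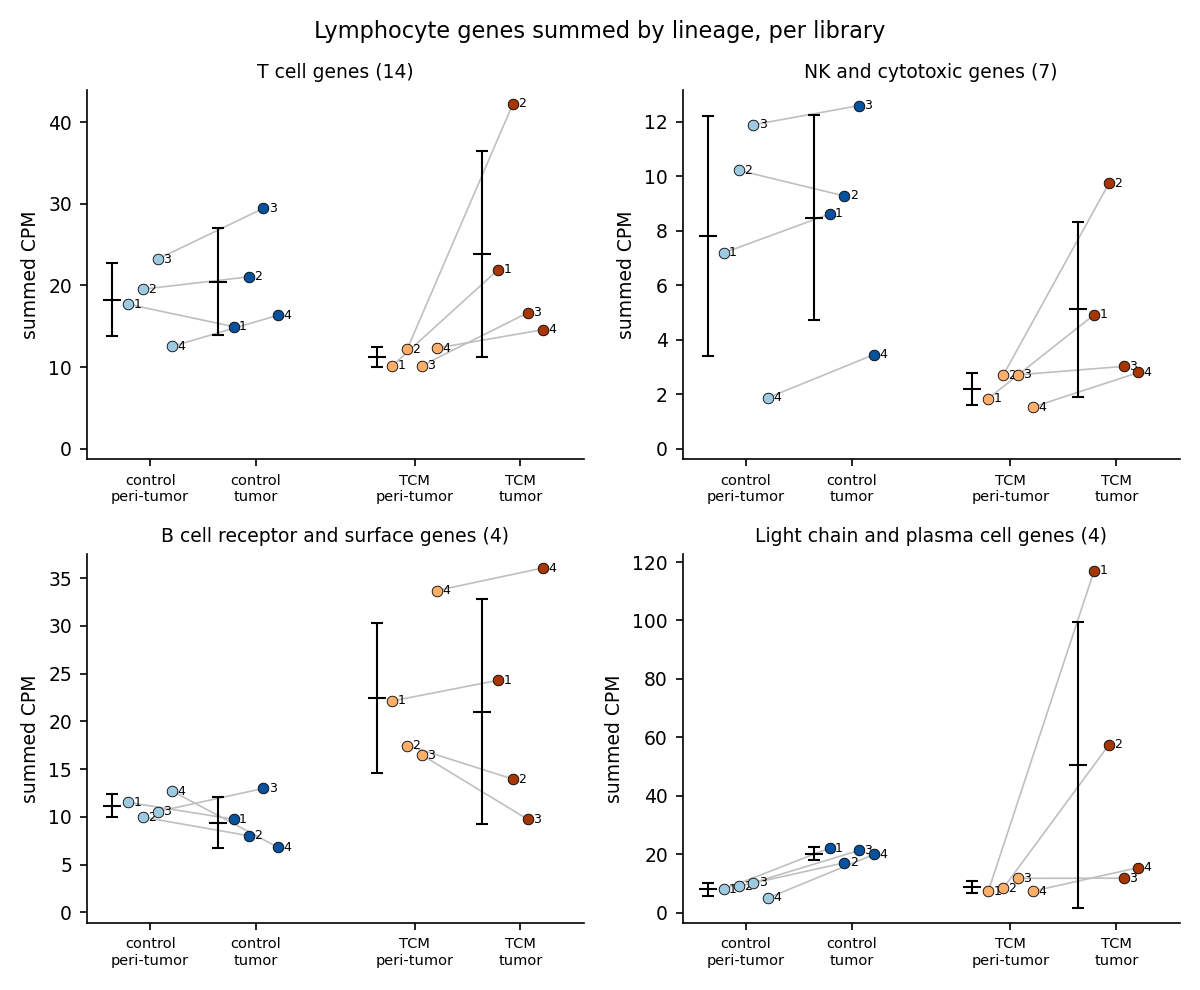
Summed CPM (vertical axis) of each set of lymphocyte genes in the 16 libraries, numbered by mouse within treatment. Grey lines join the 2 tissues of a mouse, and bars give the mean ± SD of 4 libraries. TCM tumors 1 and 2 stand above the other TCM tumors for light chain and plasma cell genes (117 and 57.4 CPM against 11.8 and 15.4), and NK and cytotoxic genes are low in all TCM peri-tumor libraries and in control peri-tumor 4.

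Of the 24 tested members, Prf1, Thy1, Igkc and Jchain rose in tumors of TCM mice, Prf1 rose in tumors of control mice, and Gzmb fell with the treatment in peri-tumor liver. Counted by comparison, 1 member rose and 0 fell in tumors of control mice, where 43.2% of all tested genes were called in either direction (22% up and 21.2% down). In tumors of TCM mice 4 rose and 0 fell, where 32.9% of all tested genes were called (17.3% up and 15.6% down). Between treatments in peri-tumor tissue 0 rose and 1 fell, where 14.1% of all genes were called (6.71% up and 7.35% down). A call is an adjusted p under 0.05 in edgeR's quasi-likelihood test with Benjamini-Hochberg adjustment over all genes of the comparison.

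Between treatments in tumors edgeR called 0 of 24 members, where 7.28% of all genes were called (4.55% up and 2.72% down). At an unadjusted p under 0.05 there were 6, and DESeq2 called 2 (Ighm and Cd79a) and limma-voom 1 (Cd79a). The change of the tumor effect with the treatment was called by edgeR for 0 of 24 members, where 1.11% of all genes were called (0.706% up and 0.404% down), with 1 member at an unadjusted p under 0.05, 1 called by DESeq2 (Zap70) and 0 by limma-voom. In each of the 5 comparisons the share of members called was below the share of all genes called. The fitted direction was up in tumors for 22 of 24 members in TCM mice and for 16 of 24 in control mice. Members vary together between libraries and are not replicates, so these counts of signs are a description. Some members passed the filter only through groups where they were high. With only the groups compared in the fit, 11 members passed it for TCM tumors and 19 for control tumors. The median log2 change was 1.43 and 0.60, against 0.00 for all genes in both, and between treatments it was -0.77 in peri-tumor tissue and 0.14 in tumors. The comparisons share libraries with each other, so the values of a gene in them are not independent.

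**Figure D2:**
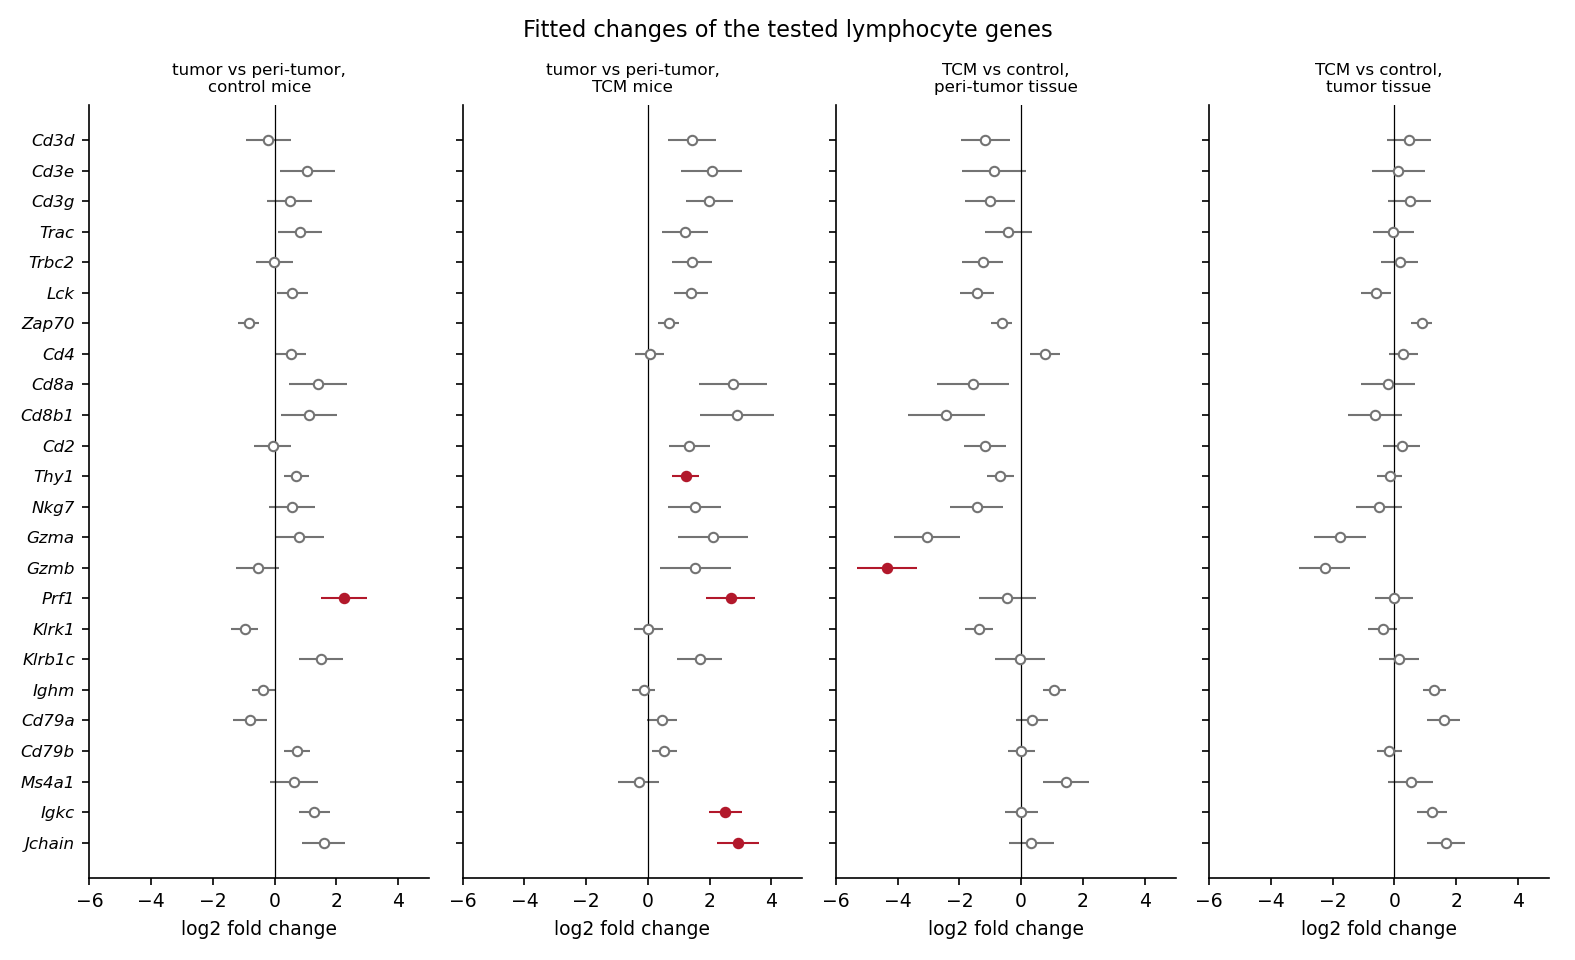
Log2 fold change (horizontal axis) with its SE for the 24 tested lymphocyte genes (rows) in the 4 pairwise comparisons, from edgeR. Filled red points passed at an adjusted p under 0.05: Prf1 in control tumors, Prf1, Thy1, Igkc and Jchain in TCM tumors, Gzmb between treatments in peri-tumor tissue, and none in tumors.

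A few genes carry each sum, and they did not all follow it. Zap70 made up 38.3% of the T cell counts, Klrk1 27.6% of the NK and cytotoxic counts, Ighm 87.7% of the B cell receptor and surface counts, and Igkc 72.4% of the light chain and plasma cell counts. Without Zap70 the T cell sum of control mice was higher in tumors by 0.71 on the log2 scale, against 0.16 with it.

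**Figure D3:**
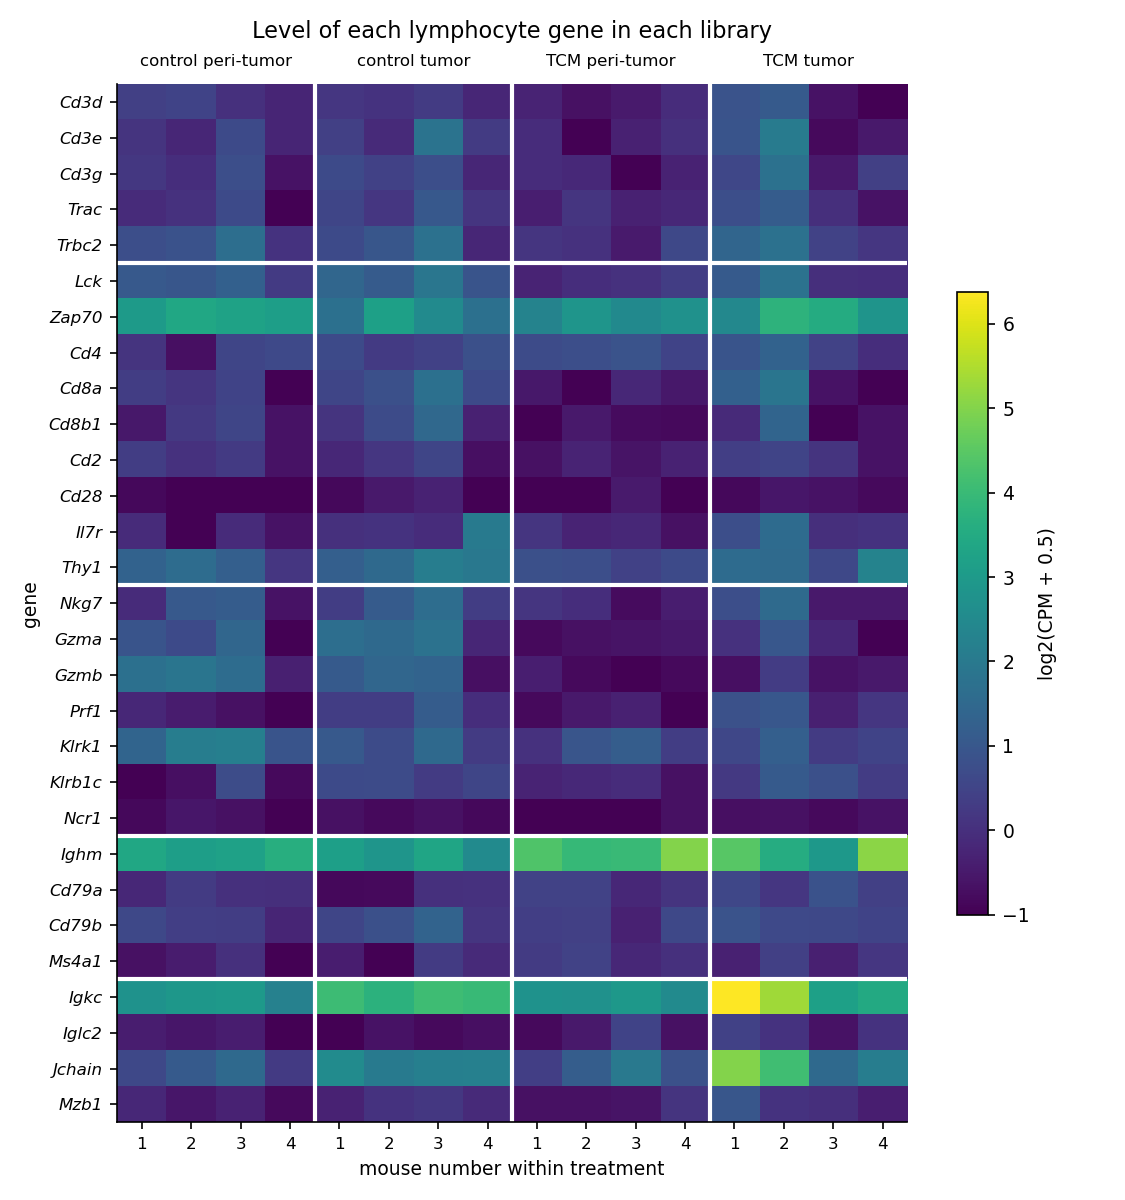
Level of each of the 29 lymphocyte genes (rows, grouped by lineage) in each library (columns, grouped by tissue and treatment, numbered by mouse), as log2(CPM + 0.5). Igkc, Ighm, Zap70 and, in TCM tumors 1 and 2, Jchain are bright, and most other members lie near the dark end, with TCM tumors 1 and 2 brighter than TCM tumors 3 and 4 for most T cell and plasma cell genes.

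Among the genes of the T cell receptor complex, Cd3d, Cd3e, Cd3g, Trac and Trbc2, none passed edgeR's test in any comparison. At an unadjusted p under 0.05 there were Cd3g and Trbc2 in TCM tumors, and DESeq2 called Cd3g there (adjusted p = 0.0323). Cd3e encodes the epsilon chain of CD3. It had 0.573, 0.363, 1.08 and 0.349 CPM in control peri-tumor libraries 1 to 4, and 0.824, 0.416, 3.02 and 0.716 CPM in control tumors. TCM mice had 0.463, 0, 0.302 and 0.512 CPM in peri-tumor libraries and 1.40, 3.72, 0.0721 and 0.205 CPM in tumors. Control tumor 3 and TCM tumors 1 and 2 were the high libraries, and all groups overlapped. A stretch of 135 exonic bases overlaps the predicted gene Gm48719 on the other strand. The log2 change in tumors was 1.06 ± 0.90 (SE) in control mice (edgeR adjusted p = 0.367) and 2.06 ± 0.98 in TCM mice (edgeR adjusted p = 0.118).

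Cd3g, the gamma chain of CD3, had 0.617 ± 0.446, 0.872 ± 0.379, 0.297 ± 0.206 and 1.22 ± 1.14 CPM. Its log2 change of 1.99 ± 0.77 in TCM tumors had the lowest adjusted p of the 5 genes (edgeR adjusted p = 0.0586), and with the mouse as a block it passed (1.90, edgeR adjusted p = 0.0112). Without TCM tumor 2 it was 1.15 (edgeR adjusted p = 0.281). Cd3d, the delta chain, had 0.648 ± 0.264, 0.563 ± 0.150, 0.285 ± 0.135 and 0.774 ± 0.820 CPM, with a log2 change of -0.21 ± 0.73 in control tumors and 1.43 ± 0.78 in TCM tumors (edgeR adjusted p = 0.842 and 0.177). Cd3d and Cd3g are neighbors on chromosome 9, with starts 1355 bp apart on opposite strands (chr9:44981786-44987339 and chr9:44969572-44980431, GRCm38), and Cd3e lies on the same chromosome with its start 27.8 kb from that of Cd3d. Trac, the constant region of the alpha chain, had 0.518 ± 0.444, 0.929 ± 0.440, 0.389 ± 0.154 and 0.899 ± 0.716 CPM, with changes of 0.82 ± 0.71 and 1.20 ± 0.74 (edgeR adjusted p = 0.374 and 0.234). Trbc2, a constant region of the beta chain, had 1.44 ± 0.887, 1.45 ± 1.07, 0.596 ± 0.328 and 1.62 ± 1.06 CPM, with changes of -0.01 ± 0.60 and 1.42 ± 0.65 (edgeR adjusted p = 0.994 and 0.107). Trbc2 is uncertain, since 44.0% of the 50-base words of its longest transcript also occur in other genes, chiefly Trbc1.

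For these 5 genes the log2 change in TCM tumors ran from 1.20 (Trac) to 2.06 (Cd3e), with a median of 1.43 where the median of all 14865 tested genes was 0.00. In control mice it ran from -0.21 (Cd3d) to 1.06, with a median of 0.48. Between treatments, all 5 were lower in TCM peri-tumor tissue, by -1.25 (Trbc2) to -0.42 (Trac), with edgeR adjusted p from 0.218 to 0.762. In tumors the difference between treatments ran from -0.03 (Trac) to 0.49 (Cd3g), with edgeR adjusted p from 0.697 to 0.985.

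The coreceptor gene Cd8a encodes the alpha chain of CD8, which marks cytotoxic T cells. It had 0.764, 0.605, 0.891 and 0 CPM in control peri-tumor libraries 1 to 4 and 0.951, 1.25, 2.83 and 1.07 CPM in control tumors. TCM mice had 0.198, 0, 0.378 and 0.192 CPM in peri-tumor libraries and 1.88, 3.16, 0.144 and 0 CPM in tumors. Every control tumor was above every control peri-tumor library, whereas in TCM mice the 2 tissues overlapped, with TCM tumors 1 and 2 high and TCM tumor 4 at 0 counts. The log2 change in tumors was 1.40 ± 0.93 in control mice (edgeR adjusted p = 0.242) and 2.75 ± 1.10 in TCM mice (edgeR adjusted p = 0.0656).

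Cd8b1, the partner chain of CD8, had 0.488 ± 0.391, 1.07 ± 0.893, 0.0855 ± 0.0847 and 0.668 ± 0.977 CPM, with a log2 change of 2.89 ± 1.21 in TCM tumors (edgeR adjusted p = 0.0784) that passed with the mouse as a block (2.65, edgeR adjusted p = 0.0250). It was 1.14 without TCM tumor 2 (edgeR adjusted p = 0.520), and without that library the log2 changes of Cd8a, Cd3e and Lck were 1.85, 0.83 and 0.76, none of them called. Cd4, the coreceptor of helper T cells, had 0.674 ± 0.422, 0.965 ± 0.250, 1.15 ± 0.195 and 1.18 ± 0.655 CPM. Its log2 changes lay between 0.05 and 0.77 in the 4 pairwise comparisons, with edgeR adjusted p from 0.316 to 0.944. Cd4 was the only tested T cell gene with a higher fitted level in TCM than in control peri-tumor tissue, and it is also expressed by some macrophages.

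Lck, the kinase that starts T cell receptor signaling, had 1.41 ± 0.513, 2.12 ± 0.811, 0.525 ± 0.182 and 1.39 ± 1.16 CPM. Its log2 change was 0.58 ± 0.49 in control tumors and 1.40 ± 0.55 in TCM tumors (edgeR adjusted p = 0.364 and 0.0620). Its log2 difference between TCM and control peri-tumor tissue was -1.42 ± 0.55 (edgeR adjusted p = 0.0952), and it passed without control mouse 4 (-1.64, edgeR adjusted p = 0.0472). Zap70, the kinase bound by the phosphorylated CD3 chains, lies at chr1:36761798-36782818 (plus strand, GRCm38). It had 7.64, 9.98, 8.97 and 8.37 CPM in control peri-tumor libraries 1 to 4 and 2.79, 8.73, 5.27 and 2.81 CPM in control tumors. TCM mice had 4.43, 6.75, 5.21 and 6.20 CPM in peri-tumor libraries and 4.98, 13.3, 11.1 and 6.57 CPM in tumors.

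Unlike those of Cd3e and Cd8a, the values of Zap70 were lower in tumor than in peri-tumor tissue in 4 of 4 control mice and higher in 4 of 4 TCM mice. The log2 change was -0.84 ± 0.35 in control mice (edgeR adjusted p = 0.0613) and 0.67 ± 0.34 in TCM mice (edgeR adjusted p = 0.153). The difference between these changes was 1.51 ± 0.49, which had the lowest adjusted p among the members without passing (edgeR adjusted p = 0.124), and DESeq2 called it (adjusted p = 0.0493). With the mouse as a block the change in control tumors passed (-0.97, edgeR adjusted p = 0.0131).

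Thy1 (chr9:44043384-44048579, plus strand), a surface protein of T cells that fibroblasts and stellate cells can also carry, was the T cell gene that passed the test, in TCM tumors. It had 1.26, 1.21, 0.831 and 1.09 CPM in TCM peri-tumor libraries 1 to 4 and 2.49, 2.42, 1.01 and 4.38 CPM in TCM tumors, against 1.97, 2.54, 1.84 and 0.628 CPM and 1.84, 2.36, 3.86 and 3.40 CPM in control mice. Thy1 was higher in the tumor in 4 of 4 TCM mice, by 1.21 to 4.03 times, although TCM tumor 3 lay below 3 of the peri-tumor libraries. It rose by 1.22 ± 0.43 on the log2 scale (edgeR adjusted p = 0.0391). The call is fragile: it was lost in 10 of 15 alternatives, among them limma-voom (adjusted p = 0.122), no filter (0.0585), the mouse as a block (0.0715) and each single TCM library left out other than TCM tumor 3 (0.0573 to 0.156).

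The 9 fibroblast and stellate cell markers were measured beside Thy1, and 6 rose and 1 fell in TCM tumors (all tested genes: 17.3% up and 15.6% down). Their summed level ran from 156 to 197 CPM in TCM peri-tumor tissue and from 249 to 379 CPM in TCM tumors, with no marker at 0 in every library. TCM tumor 4 had the most Thy1 of the TCM tumors (4.38 CPM) and the highest sum of these markers (379 CPM), with Cd3e at 0.205 CPM and Cd8a at 0 CPM. TCM tumor 1 had the lowest sum (249 CPM) with Thy1 at 2.49 CPM, above TCM tumor 3 (1.01 CPM). The part of these cells in the level of Thy1 was not tested. Cd2, an adhesion receptor of T and NK cells, had 0.537 ± 0.281, 0.522 ± 0.360, 0.235 ± 0.108 and 0.609 ± 0.346 CPM. Its log2 change was -0.06 ± 0.60 in control tumors and 1.34 ± 0.66 in TCM tumors (edgeR adjusted p = 0.946 and 0.136), and its treatment differences were -1.16 ± 0.67 and 0.24 ± 0.60 in peri-tumor tissue and tumors (edgeR adjusted p = 0.266 and 0.842). Il7r, the interleukin 7 receptor, had 0.258 ± 0.224, 1.29 ± 1.57, 0.360 ± 0.191 and 1.19 ± 0.922 CPM, and TCM tumor 2 and control tumor 4 were its high libraries, at 2.48 and 3.64 CPM. Cd28, the costimulatory receptor, had 0.0159 ± 0.0318, 0.148 ± 0.145, 0.0567 ± 0.113 and 0.115 ± 0.0606 CPM, with 20 counts in all 16 libraries. Neither Il7r nor Cd28 passed the filter in the fit of all 16 libraries. Il7r passed it in 8 alternatives for control tumors and was called higher in 5 of them (log2 change 1.87 to 2.69 over the 8, lowest edgeR adjusted p = 0.0310), all with control tumor 4 in the fit.

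Among the cytotoxic genes the gene of perforin rose in tumors, and that of granzyme B fell with the treatment. Prf1 (chr10:61297833-61304680, plus strand), which encodes perforin, had 0.382, 0.242, 0.127 and 0 CPM in control peri-tumor libraries 1 to 4 and 0.761, 0.762, 1.74 and 0.478 CPM in control tumors. The TCM mice had 0.0661, 0.202, 0.302 and 0 CPM in peri-tumor libraries and 1.28, 1.49, 0.289 and 0.616 CPM in tumors. All 4 control tumors were above all 4 control peri-tumor libraries, and in TCM mice 1 tumor, number 3, fell within the peri-tumor range.

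Prf1 rose in tumors by 2.24 ± 0.74 on the log2 scale in control mice (edgeR adjusted p = 0.0219) and by 2.68 ± 0.78 in TCM mice (edgeR adjusted p = 0.0152). Without control mouse 4 the rise in control mice was 2.05 (edgeR adjusted p = 0.0360). Prf1 passed the filter on low counts only through the tumors, since the peri-tumor groups held 12 (control) and 8 (TCM) counts in all, and it has no value with a filter of 1 CPM in 4 libraries. The control call was lost without control peri-tumor 3 (2.09, edgeR adjusted p = 0.0595) or without control tumor 3 (1.73, edgeR adjusted p = 0.0911). In TCM mice it was called in 13 of 13 alternatives in which it was tested, and it was larger without TCM peri-tumor 3 (3.28, edgeR adjusted p = 0.0153). The treatment made no detected difference to Prf1 in tumors, with a log2 difference of -0.01 ± 0.63 (edgeR adjusted p = 0.996).

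Gzmb (chr14:56258838-56262260, minus strand), which encodes granzyme B, had 2.80, 3.15, 2.54 and 0.279 CPM in control peri-tumor libraries 1 to 4, which are 44, 52, 40 and 4 counts. In TCM peri-tumor libraries it had 0.264, 0.0675, 0 and 0.0640 CPM, which are 4, 1, 0 and 1 counts. All TCM libraries were below all control libraries, although control peri-tumor 4 was close to TCM peri-tumor 1. Gzmb fell by 4.33 ± 0.97 on the log2 scale (edgeR adjusted p = 0.00980), and without control mouse 4 by 4.70 (edgeR adjusted p = 0.000233). It was called in 14 of 14 alternatives in which it was tested, with log2 values of -5.36 to -3.98, the lowest without TCM peri-tumor 1 (edgeR adjusted p = 0.0184). Gzmb did not pass the filter, and has no value, where only the groups compared were fitted. With all groups in the fit it passed chiefly through the control libraries, which held 140 counts in peri-tumor tissue and 92 in tumors. The TCM groups held 6 and 19 counts in all. The alternatives share most of these libraries, so their calls are not independent support.

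In tumors Gzmb had 1.65, 2.22, 2.06 and 0.119 CPM in control mice and 0.122, 0.744, 0.144 and 0.205 CPM in TCM mice. Control tumor 4 was the lowest control library here too, so the groups overlapped. The log2 difference was -2.25 ± 0.83 (edgeR adjusted p = 0.106), and without control mouse 4 it passed (-2.61, edgeR adjusted p = 0.00738). Leaving out the lowest control tumor enlarges this difference by construction.

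Gzma, the gene of granzyme A, another protease of the granules, was also low in TCM mice and in control mouse 4. It had 1.40, 1.09, 2.23 and 0 CPM in control peri-tumor libraries 1 to 4 and 0.0661, 0.135, 0.151 and 0.192 CPM in TCM peri-tumor libraries. In tumors it had 2.66, 2.36, 2.96 and 0.358 CPM in control mice and 0.547, 1.49, 0.361 and 0 CPM in TCM mice. Control mouse 4 gave the lowest control library of both tissues, with 0 and 6 counts. The log2 difference between treatments was -3.05 ± 1.07 in peri-tumor tissue (edgeR adjusted p = 0.0675) and -1.76 ± 0.85 in tumors (edgeR adjusted p = 0.213). Without control mouse 4 both passed (-3.46 and -2.07, edgeR adjusted p = 0.00585 and 0.0388). That fit leaves out the lowest control library of each tissue, which enlarges these differences by construction.

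Klrk1, the activating receptor NKG2D, had 2.84 ± 1.30, 1.45 ± 0.715, 1.11 ± 0.561 and 1.11 ± 0.511 CPM. Its log2 difference between treatments in peri-tumor tissue was -1.36 ± 0.46 (edgeR adjusted p = 0.0595), and without control mouse 4 it passed (-1.59, edgeR adjusted p = 0.0160). In control tumors its log2 change was -0.98 ± 0.45 (edgeR adjusted p = 0.0918), and with the mouse as a block it passed (-0.97, edgeR adjusted p = 0.0456). Nkg7, a granule membrane protein, had 0.969 ± 0.793, 1.46 ± 0.891, 0.350 ± 0.230 and 1.01 ± 1.05 CPM. Its log2 differences between treatments were -1.44 ± 0.86 in peri-tumor tissue and -0.49 ± 0.75 in tumors, with edgeR adjusted p from 0.194 to 0.726 over the 5 comparisons.

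Klrb1c, the receptor NK1.1, had 0, 0.121, 1.15 and 0.0698 CPM in control peri-tumor libraries 1 to 4 and 0.707 to 1.11 CPM in control tumors. Its level in control peri-tumor tissue thus rests on library 3. The log2 change in control tumors was 1.49 ± 0.72 (edgeR adjusted p = 0.108) and became 3.74 without that library (edgeR adjusted p = 0.000393). Between treatments the log2 difference in peri-tumor tissue went from -0.04 to 2.21 (edgeR adjusted p = 0.979 and 0.0686). In TCM mice all tumors (0.668 to 1.61 CPM) were above all peri-tumor libraries (0.128 to 0.453 CPM), with a log2 change of 1.68 ± 0.73 (edgeR adjusted p = 0.0878). Of its 50-base words, 18.1% also occur in other genes, chiefly the predicted gene Gm44511. Ncr1, the NK cell receptor NKp46, had 0.0931 ± 0.0786, 0.0961 ± 0.0367, 0.0320 ± 0.0640 and 0.114 ± 0.0285 CPM. It had at most 3 counts in any library and was not tested.

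Letters shared by the promoters of the cytotoxic genes were searched in the RefSeq promoters of GRCm38.p6, 250 bases before each start, which were at hand for 16 of the 29 members. The windows below were chosen after the values were seen. Gzmb, Gzma, Klrk1 and Lck are the 4 members called lower in TCM peri-tumor tissue once control mouse 4 was left out. With that mouse in the fit only Gzmb was called. Each of the 4 holds TGTGGTT or its reverse complement AACCACA, the core letters bound by RUNX factors. Whether these letters bear on the levels was not tested. The motif was searched on both strands, and its match is in capitals. All 5 members with the motif are shown.
Gzmb, chr14:56262342-56262388, minus strand: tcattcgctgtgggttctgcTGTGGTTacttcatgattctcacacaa
Gzma, chr13:113101006-113101052, minus strand: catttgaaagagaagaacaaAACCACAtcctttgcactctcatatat
Klrk1, chr6:129623967-129624013, minus strand: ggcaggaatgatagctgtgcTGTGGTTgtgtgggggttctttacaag
Lck, chr4:129573673-129573719, minus strand: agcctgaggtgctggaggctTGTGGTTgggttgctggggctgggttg
Ncr1, chr7:4337519-4337565, plus strand: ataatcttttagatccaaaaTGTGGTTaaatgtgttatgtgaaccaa

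These matches begin 34 (Gzmb), 51 (Gzma), 129 (Klrk1), 58 (Lck) and 176 (Ncr1) bases before a RefSeq start. The motif was found in 5 of the 16 members, which have 20 promoters between them, and in 4.40% of the 32851 promoters of the table, so that the first is a share of genes and the second of promoters. Prf1 and Nkg7 had no match in their windows. In all, 6 motifs were searched, and RUNX is shown with the genes already chosen by their values. The ETS letters CAGGAAG were in 7 members, Prf1 and Nkg7 among them, and in 10.8% of all promoters, and the NFAT letters TGGAAA were in 5 members and 18.6%. The cyclic AMP element TGACGTCA was in 1 member (Zap70) and 1.55%. The octamer ATTTGCAT, known from immunoglobulin promoters, was in 0 members and 1.60%, and a BLIMP1 and IRF motif was in 0 members and 0.207%. The promoters of Ighm and Igkc were not used here. A match is a description of these letters and not of a bound site.

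Among the B cell receptor genes, Ighm (chr12:113418558-113422730, minus strand) had higher values in TCM than in control mice, with no call. It had 9.998, 8.23, 8.78 and 11.9 CPM in control peri-tumor libraries 1 to 4 and 8.49, 6.72, 9.71 and 5.25 CPM in control tumors. TCM mice had 19.8, 14.9, 15.4 and 31.6 CPM in peri-tumor libraries and 21.7, 11.48, 7.14 and 33.7 CPM in tumors. All 4 TCM peri-tumor libraries were above all 4 control peri-tumor libraries, and of the tumors only TCM tumor 3 fell within the control range.

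The log2 difference of Ighm between treatments was 1.07 ± 0.38 in peri-tumor tissue (edgeR adjusted p = 0.0686) and 1.30 ± 0.38 in tumors (edgeR adjusted p = 0.0518), and neither passed. With only the peri-tumor groups in the fit the difference in peri-tumor tissue passed (1.07, edgeR adjusted p = 0.0268), and DESeq2 called both (adjusted p = 0.0292 and 0.0107). Between tissues its log2 change was -0.36 ± 0.38 in control mice (edgeR adjusted p = 0.475) and -0.14 ± 0.37 in TCM mice (edgeR adjusted p = 0.805). TCM mouse 4 had the highest Ighm in both tissues.

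Cd79a, which encodes a signaling chain of the B cell receptor, had 0.0634, 0.0693, 0.514 and 0.537 CPM in control tumors 1 to 4 and 0.972, 0.620, 1.30 and 0.821 CPM in TCM tumors, so that all TCM tumors were above all control tumors. In peri-tumor tissue it had 0.382, 0.726, 0.509 and 0.488 CPM in control mice and 0.859, 0.877, 0.378 and 0.576 CPM in TCM mice, which overlapped. The log2 difference in tumors was 1.60 ± 0.52 (edgeR adjusted p = 0.0745), and without control mouse 4 it passed (2.08, edgeR adjusted p = 0.0375). Control tumor 4 was the highest control tumor for Cd79a, so leaving it out enlarges this difference by construction.

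Cd79b, the other signaling chain, had 0.729 ± 0.279, 1.21 ± 0.622, 0.732 ± 0.305 and 1.07 ± 0.189 CPM. It gave a log2 change of 0.72 ± 0.41 and 0.54 ± 0.42 in control and TCM tumors (edgeR adjusted p = 0.176 and 0.355) and a log2 difference of -0.17 ± 0.40 between treatments in tumors (edgeR adjusted p = 0.836). Ms4a1, the B cell surface protein CD20, had 0.220 ± 0.217, 0.345 ± 0.297, 0.623 ± 0.222 and 0.504 ± 0.252 CPM. Its log2 difference between treatments was 1.46 ± 0.75 in peri-tumor tissue and 0.53 ± 0.72 in tumors (edgeR adjusted p = 0.209 and 0.692). Of these 4 genes, edgeR called 0 in any comparison. At an unadjusted p under 0.05 there were Ighm in both treatment comparisons and Cd79a between treatments in tumors. DESeq2 called these as well, and limma-voom called Ighm in peri-tumor tissue, Cd79a between treatments in tumors and Cd79a in control tumors, where it was lower (adjusted p = 0.0377).

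Igkc and Jchain, the tested genes of the light chain and plasma cell set, rose in tumors of TCM mice. Igkc (chr6:70726435-70726966, plus strand) had 6.30, 6.96, 7.32 and 4.26 CPM in control peri-tumor libraries 1 to 4 and 16.3, 12.8, 16.5 and 15.2 CPM in control tumors. TCM mice had 6.28, 6.14, 7.18 and 5.31 CPM in peri-tumor libraries and 82.8, 39.6, 8.73 and 10.7 CPM in tumors. Tumors were above peri-tumor libraries without overlap in both treatments, by 1.84 to 3.56 times within a control mouse and by 13.2, 6.45, 1.22 and 2.02 times within TCM mice 1 to 4.

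Igkc rose in TCM tumors by 2.51 ± 0.52 on the log2 scale (edgeR adjusted p = 0.00173), and in control mice its log2 change was 1.29 ± 0.51 (edgeR adjusted p = 0.0539), which passed with the mouse as a block (1.30, edgeR adjusted p = 0.0390). Without TCM tumor 1 the rise in TCM mice was 1.67 (edgeR adjusted p = 0.00452). The log2 difference between treatments was 0.00 ± 0.53 in peri-tumor tissue, with 6.21 ± 1.37 and 6.23 ± 0.766 CPM, and in tumors the difference was 1.22 ± 0.49 (edgeR adjusted p = 0.140), or 0.41 without TCM tumor 1 (edgeR adjusted p = 0.579).

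Jchain (chr5:88519809-88527891, minus strand), the chain that joins IgM and IgA polymers, had 1.02, 1.63, 2.35 and 0.698 CPM in control peri-tumor libraries 1 to 4 and 5.45, 3.53, 4.05 and 4.18 CPM in control tumors. TCM mice had 0.793, 1.75, 3.48 and 1.28 CPM in peri-tumor libraries and 31.9, 16.7, 2.38 and 3.83 CPM in tumors. TCM tumors 1 and 2 were the high libraries, and TCM mouse 3 had less Jchain in its tumor than beside it. Jchain rose in TCM tumors by 2.92 ± 0.68 (edgeR adjusted p = 0.00355), and by 2.09 without TCM tumor 1 (edgeR adjusted p = 0.0151). In control mice the groups did not overlap, with a log2 change of 1.58 ± 0.69 (edgeR adjusted p = 0.0752).

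Both tested genes of the light chain and plasma cell set thus passed in TCM mice. The tumor change did not differ detectably between treatments, with a difference of 1.22 ± 0.72 for Igkc (edgeR adjusted p = 0.405) and 1.34 ± 0.95 for Jchain (edgeR adjusted p = 0.499). Iglc2, a lambda light chain constant region, had 0.173 ± 0.120, 0.0806 ± 0.0623, 0.326 ± 0.391 and 0.525 ± 0.290 CPM. Mzb1, a chaperone of antibody secretion, had 0.238 ± 0.140, 0.483 ± 0.144, 0.248 ± 0.218 and 0.699 ± 0.521 CPM, and 75.7% of its 50-base words also occur in the overlapping gene SPATA24. Neither was tested.

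The heavy chain genes, most of which are not among the 29 members, were read beside Ighm as each gene's share of the summed heavy chain FPKM. Ighm held 59.9 ± 6.15% of it in control peri-tumor tissue and 29.3 ± 6.62% in control tumors. In TCM mice it held 74.9 ± 7.21% in peri-tumor tissue and 34.6 ± 23.7% in tumors, where single tumors ran from 14.4% to 66.9%. Igha, the alpha heavy chain of IgA, held 18.1 ± 6.17% and 50.9 ± 4.71% in control mice and 11.6 ± 5.65% and 48.2 ± 19.9% in TCM mice. TCM tumor 4 was the exception, with Ighm at 66.9% and Igha at 21.9%. Ighe was at 0 counts in all libraries.

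**Figure D4:**
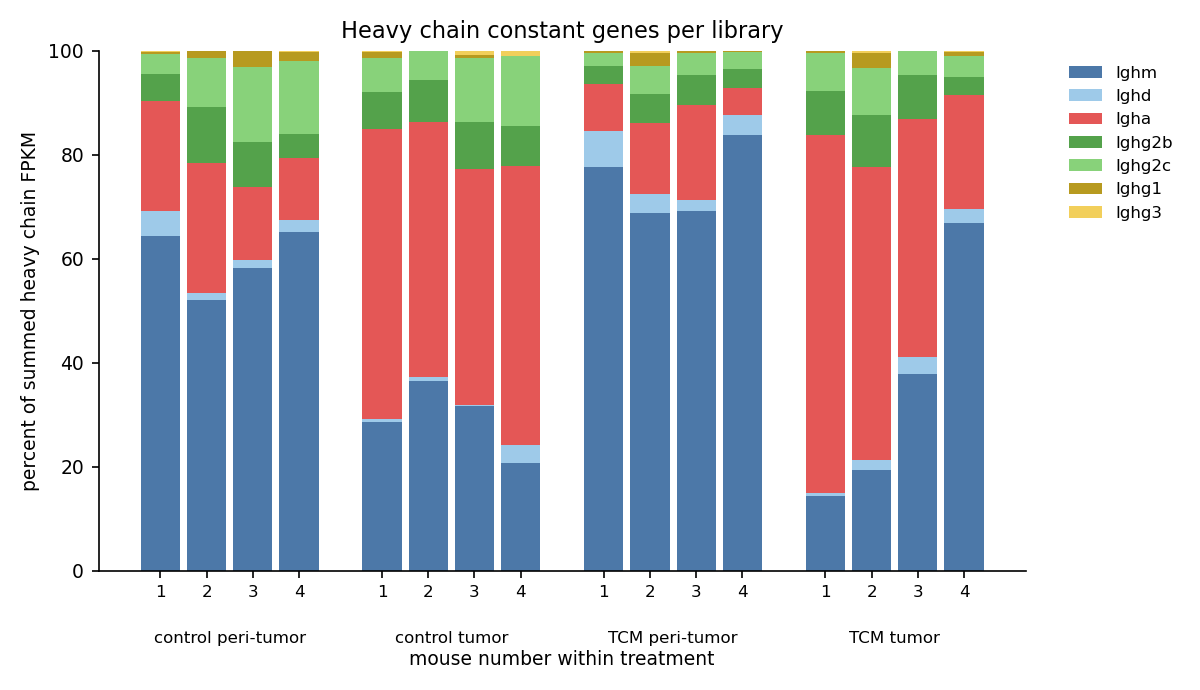
Share of each heavy chain constant gene in the summed heavy chain FPKM (vertical axis, percent) of each library, numbered by mouse. Igha (red) holds 45.3% to 55.8% in control tumors and 11.9% to 25.2% in control peri-tumor tissue, and TCM tumor 4 keeps Ighm (dark blue) at 66.9%.

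Igha (chr12:113254830-113260236, minus strand) rose in tumors of both treatments. It had 4.46, 5.38, 2.86 and 2.93 CPM in control peri-tumor libraries 1 to 4 and 22.4, 12.3, 18.8 and 18.4 CPM in control tumors. TCM mice had 3.11, 3.98, 5.52 and 2.69 CPM in peri-tumor libraries and 140, 45.1, 11.7 and 14.9 CPM in tumors. All tumors were above all peri-tumor libraries of their treatment. The rise was 2.19 ± 0.61 on the log2 scale in control mice (edgeR adjusted p = 0.00892) and 3.798 ± 0.64 in TCM mice (edgeR adjusted p = 0.000333), or 2.66 without TCM tumor 1 (edgeR adjusted p = 0.000259) and 3.15 with the mouse as a block (edgeR adjusted p = 0.00288).

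The gamma chains Ighg2b and Ighg2c rose in TCM tumors by 2.22 ± 0.54 (edgeR adjusted p = 0.00470) and 2.30 ± 0.66 (edgeR adjusted p = 0.0137), and without TCM tumor 1 the values were 1.40 and 1.496, of which Ighg2c no longer passed (edgeR adjusted p = 0.0737), as with limma-voom (adjusted p = 0.0920). Per length, Igkc exceeded Ighm by 2.78 ± 0.951 times in control peri-tumor tissue and 8.77 ± 2.22 times in control tumors. In TCM mice the ratio was 1.42 ± 0.544 in peri-tumor tissue and 9.18 ± 7.09 in tumors. These ratios are a description and were not tested.

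V segments, the variable pieces that each lymphocyte clone joins to its constant region, were counted beside the members. A V segment and its constant region lie on the same transcript, so these counts are not independent of Igkc and Ighm. The table holds 185 heavy chain, 160 kappa, 128 T cell receptor alpha and 35 T cell receptor beta V segments. Between 12 and 26 heavy chain segments had at least 1 count in control peri-tumor libraries, 23 to 40 in control tumors, 17 to 22 in TCM peri-tumor libraries and 22 to 58 in TCM tumors. Their summed level was 2.71 ± 0.796, 5.61 ± 1.38, 2.66 ± 0.772 and 15.3 ± 15.3 CPM. The kappa segments summed to 3.94 ± 1.63, 8.62 ± 2.58, 3.13 ± 0.695 and 20.3 ± 19.2 CPM.

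TCM tumors 1 and 2, which were high for Igkc, Jchain and Igha, also had the most V segments, 58 and 50 for the heavy chain and 62 and 59 for kappa. They also had the most V counts, 609 and 240 for the heavy chain, above each of the other 14 libraries, and the number of segments seen grows with the counts, which were not matched. In TCM tumor 1, Ighv1-53 took 168 of 609 heavy chain V counts, 27.6% (95% exact binomial interval 24.1% to 31.3%, counting error only), and Igkv4-55 took 149 of 783 kappa V counts, 19.0% (16.3% to 22.0%). In TCM tumor 2 the leading segments took 7.08% (4.18% to 11.1%) and 11.1% (7.88% to 15.0%). A share near 29% was also seen in control peri-tumor 4, where it was 7 of 24 counts (29.2%, 12.6% to 51.1%). V segments resemble each other, and the labels do not say how reads that match several were counted.

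T cell receptor V segments were too rare for such a view. At most 9 beta segments were seen in a library, in control tumor 3, and TCM tumors 3 and 4 had 0 beta counts. Alpha segments numbered 8 at most, with 11 counts or fewer in each library.

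**Figure D5:**
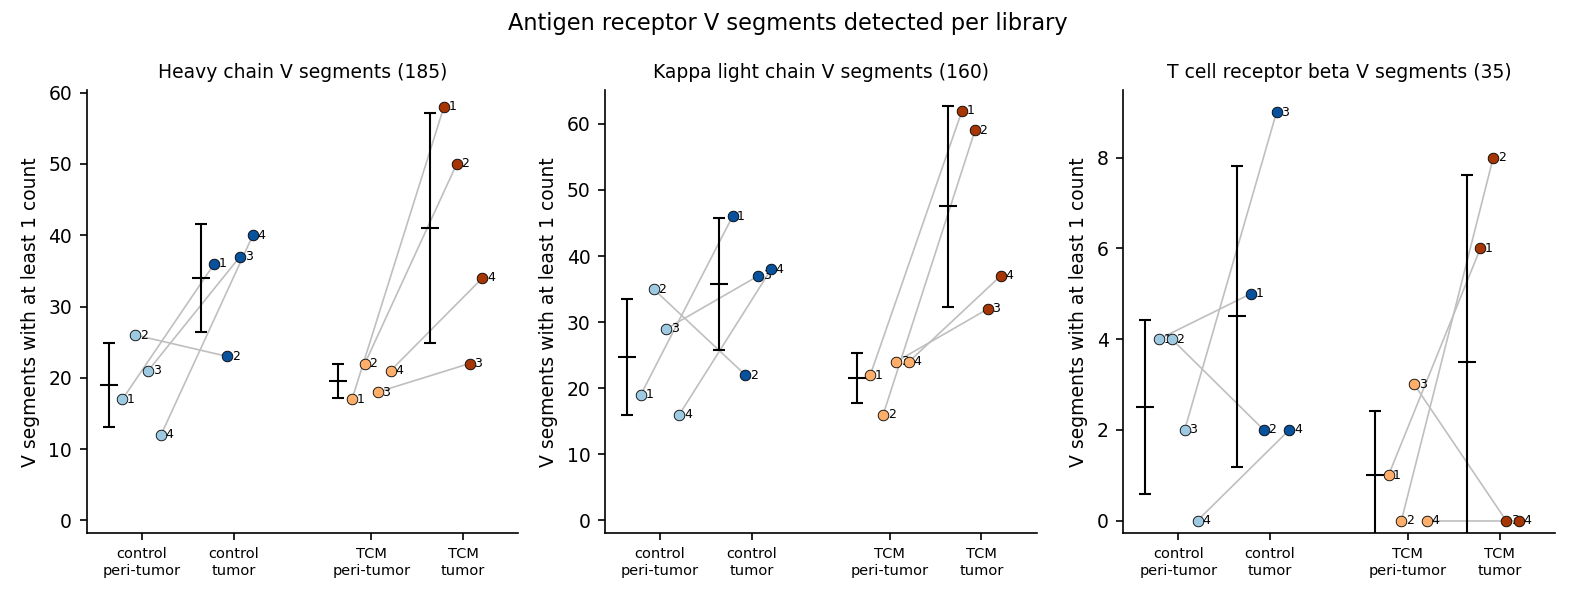
Number of V segments with at least 1 count (vertical axis) in each library, numbered by mouse, for the heavy chain, the kappa light chain and the T cell receptor beta chain. Grey lines join the 2 tissues of a mouse, and bars give the mean ± SD of 4 libraries, cut at the lower edge of the panel. TCM tumors 1 and 2 have the most heavy chain (58 and 50) and kappa (62 and 59) segments.

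Other genes of each lineage, from lists chosen in the same way, were tested in the same fit. Of 31 other T cell genes 13 were tested. In control tumors 2 rose and 1 fell, where 22% of all tested genes were called up and 21.2% down. In TCM tumors 2 rose and 1 fell, where these shares were 17.3% and 15.6%. Tcf7, a transcription factor of naive and memory T cells, rose by 0.73 ± 0.18 in control tumors (edgeR adjusted p = 0.00399) and 1.15 ± 0.18 in TCM tumors (edgeR adjusted p = 0.000204). Ccr7, a homing receptor of naive and central memory T cells and of migrating dendritic cells, rose by 2.04 ± 0.55 (edgeR adjusted p = 0.00711) and 2.13 ± 0.57 (edgeR adjusted p = 0.00938). Icos, a costimulatory receptor, fell by 1.64 ± 0.43 in control tumors (edgeR adjusted p = 0.00573).

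Themis, a T cell signaling protein whose exons overlap 4930519F09Rik on the other strand, was higher in TCM than in control peri-tumor tissue (0.543 ± 0.202 and 2.89 ± 0.629 CPM, log2 difference 2.39 ± 0.48, edgeR adjusted p = 0.00539) and fell by 2.03 ± 0.46 in TCM tumors (edgeR adjusted p = 0.00326). Of 22 other NK and innate lymphocyte genes 4 were tested. Klrb1a, a receptor of the NK1.1 family, was called higher in tumors of both treatments, from 0 to 0.181 CPM in control peri-tumor libraries to 1.37 to 10.6 CPM in control tumors, and from 0 counts in all TCM peri-tumor libraries to 0.372 to 1.51 CPM in TCM tumors. It passed the filter through the tumors, and with 0 counts in TCM peri-tumor tissue only a rise could be called in TCM mice. S1pr5, a receptor for the exit of NK cells from tissue that other cells also express, fell by 2.98 ± 0.25 in control tumors (edgeR adjusted p = 3.18e-07) and 1.67 ± 0.24 in TCM tumors (edgeR adjusted p = 0.000101), and it was lower in TCM than in control peri-tumor tissue by -1.13 ± 0.23 (edgeR adjusted p = 0.00537). Ccl5, a chemokine of activated T and NK cells, rose by 2.12 ± 0.72 in TCM tumors (edgeR adjusted p = 0.0332), a call lost in 7 alternatives, with the lowest value without TCM tumor 2 (1.16, edgeR adjusted p = 0.198).

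Of 22 other B cell genes 8 were tested. Between treatments in peri-tumor tissue 0 rose and 1 fell (all tested genes: 6.71% up and 7.35% down). In that comparison 6 of 8 had a negative sign (median log2 -0.79, against -0.00 for all genes), and 5 had an unadjusted p under 0.05. Most of the 8 thus went the other way from Ighm. Their summed level was 157 ± 75.5 CPM in control and 84.8 ± 17.7 CPM in TCM peri-tumor tissue, most of it Cd74 (138 ± 72.8 and 73.5 ± 17.2 CPM), an antigen presentation gene that macrophages and dendritic cells also express. Ighd, the delta heavy chain of naive B cells, had the sign of Ighm (1.47 ± 0.63, edgeR adjusted p = 0.126). In tumors 1 rose and 1 fell in control mice (all tested genes: 22% up and 21.2% down). In TCM mice 2 rose (Ltb and Cd72) and 0 fell (all tested genes: 17.3% up and 15.6% down), the call of Cd72 being lost in 8 of 15 alternatives. Ltb, lymphotoxin beta, which lymphocytes make to organise lymphoid tissue and which other cells can also make, rose by 4.79 ± 0.52 in control tumors (edgeR adjusted p = 3.22e-06) and 4.29 ± 0.55 in TCM tumors (edgeR adjusted p = 3.04e-05). Bank1, a B cell scaffold protein, fell by 1.04 ± 0.29 in control tumors (edgeR adjusted p = 0.00865). Cd72, a B cell receptor also found on macrophages, was lower in TCM mice in peri-tumor tissue by -2.25 ± 0.26 (edgeR adjusted p = 0.000189) and in tumors by -1.29 ± 0.25 (edgeR adjusted p = 0.00854), opposite in sign to Ighm, and 1423 of its exonic bases overlap Tesk1 on the other strand.

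Of 12 other plasma cell and switched heavy chain genes 7 were tested. In control tumors 3 rose and 0 fell (all tested genes: 22% up and 21.2% down). In TCM tumors 4 rose and 1 fell (all tested genes: 17.3% up and 15.6% down). Prdm1, the transcription factor BLIMP1 of plasma cells and effector T cells, rose by 1.87 ± 0.54 in control tumors (edgeR adjusted p = 0.0102, and 1.41 with adjusted p = 0.0630 without control mouse 4) and 2.63 ± 0.57 in TCM tumors (edgeR adjusted p = 0.00240). Derl3, a protein of the secretory pathway, rose by 1.82 ± 0.62 in control tumors (edgeR adjusted p = 0.0252), a call lost on leaving out control tumor 4 or any of control peri-tumor 1 to 3 (edgeR adjusted p from 0.0574 to 0.0698). Pim2, a kinase of plasma cells and other cells, fell by 0.82 ± 0.21 in TCM tumors (edgeR adjusted p = 0.00808).

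Markers of other leukocytes moved with the treatment beside the T, NK and granzyme levels of peri-tumor liver. Of 8 pan-leukocyte genes, 0 rose and 4 fell between treatments in peri-tumor tissue, where 6.71% of all tested genes were called up and 7.35% down. Their summed level ran from 65.0 to 145 CPM in control and from 48.5 to 57.2 CPM in TCM peri-tumor libraries. Of 11 Kupffer cell and macrophage markers, 0 rose and 9 fell in the same comparison, with sums of 682 to 1544 CPM and 342 to 436 CPM. No gene of either list was at 0 in every library, and their part in the lower T and NK sums was not tested. The Ighm level did not go with them, being higher in the TCM libraries.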

How the data were processed

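RNA-seq libraries were made with a VAHTS stranded mRNA kit from RNA isolated with mirVana, per the labels' protocols. The authors deposited 1 table of read counts per gene and, in a separate table for each library, FPKM values (counts scaled to gene length and library size). The aligner and counter, and whether counting used strand, are not stated, and the mouse genome builds mm9 and mm10 are named in the submitters' processing notes. For each library the deposited FPKM and counts gave 1 length per gene (largest deviation 0.00261% over 10933 genes), and 115 genes without a symbol held at most 0.0171% of a library's counts.

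Counts were fitted in edgeR 4.0.16 (R 4.3.3) with TMM scaling and filterByExpr (minimum count 10), all 16 libraries in 1 fit with a mean per group, giving 5 comparisons over 14865 genes. Quasi-likelihood F tests were adjusted by Benjamini-Hochberg over all genes of a comparison and called under 0.05. SE is an approximate standard error, the absolute log2 fold change divided by the square root of its F statistic. It is rough for genes with few counts. SD is over the 4 libraries of a group. Total counts of 13947483 to 16194224 put 3 counts, the limit for a count of 0, at 0.185 to 0.215 CPM, so levels near that rest on a few reads. Lineage sums are sums of CPM with no test. Alternatives were DESeq2 1.42.0, limma-voom (limma 3.58.1) with sample weights, RLE scaling, other filters, only the groups compared, a replicate block, each library left out and control mouse 4 left out. Fits were checked on simulated data.

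Members, lists, motifs and alternatives were chosen with earlier results of these data known. All 29 members are named. Values of every library are given for members called in any comparison and for Cd3e, Cd8a, Gzma, Cd79a, Igkc and Jchain, and those of Ighm, Zap70 and Igha, and of Klrb1c in control peri-tumor tissue, were added after their values were seen. Of other lists (12, with 182 genes) counts are given, with values of called genes for the lymphocyte, lymphoid aggregate and dendritic cell lists. Cd74 and Ighd were named after their values were seen. Animal codes in the labels tie the tumor and peri-tumor library of a mouse. The deviations of the 2 libraries of a mouse from their group means correlated at 0.0627 to 0.228 in control and 0.0433 to 0.235 in TCM mice, and 7 of 8 peri-tumor libraries correlated best with their own tumor. No 2 libraries of a group agreed within sampling noise (chi-square per degree of freedom at least 15.6). Positions and 50-base words are from GENCODE M21 (GRCm38), promoters from RefSeq. Intervals of shares are exact (Clopper-Pearson, 95%) and cover counting error only.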

Additional observations from a re-analysis of the deposited data

Results flagged for a closer look

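In 10 of 140 groups of 4 libraries, 1 library lay far from the other 3 by Dixon's test. Chance gives about 1 in 20 for normally distributed values, which counts near 0 are not. The 10 are therefore not read as an excess. Control tumor 3 was the high library for Cd3e (3.02 CPM) and for Cd8a (2.83 CPM), and it also had the most beta V segments, 9. Control tumor 4 stood out for Il7r with 3.64 CPM, where the other control tumors had 0.45 to 0.55 CPM. TCM tumor 2 stood out for Gzmb with 0.744 CPM, and control peri-tumor 3 for Klrb1c with 1.15 CPM. TCM peri-tumor 3 was high for Iglc2 (0.907 CPM) and TCM peri-tumor 4 for Mzb1 (0.576 CPM), both untested genes. Cd28 in control peri-tumor 1 (0.0637 CPM) and TCM peri-tumor 3 (0.227 CPM) and Ncr1 in TCM peri-tumor 4 (0.128 CPM) were each the only library of their group with any count. Dixon's test flags such a group by construction.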

How the results depend on the processing

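No call of a member reversed under any alternative run. Of the values of single members under alternatives, 1817 kept direction and side of the threshold, 12 lost their call, 61 gained one, and 88 of 1978 changed sign without a call on either side. The number of members called in control tumors (1) was 4 with DESeq2, 5 with limma-voom, 2 when other groups were left out of the fit and 0 when genes needed 1 CPM in 4 libraries. In TCM tumors (4) it was 8 with DESeq2. Between treatments in peri-tumor tissue (1) it was 4 with DESeq2, 4 with limma-voom, 3 with only the groups compared and 4 without control mouse 4. Between treatments in tumors (0) it was 2 with DESeq2, 1 with limma-voom, 1 with the filter of 1 CPM and 3 without control mouse 4, and for the difference of tumor effects (0) it was 1 with DESeq2. Leaving out single libraries gave 1 to 3, 3 to 8, 1 to 4, 0 to 2 and 0 calls in the 5 comparisons. The most came without TCM tumor 3 (8) in TCM tumors and without control peri-tumor 4 (4) in peri-tumor tissue. The cause was not tested.

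With the mouse as a replicate block, which the pairing of tissues allows, 4 members were called in control tumors (Igkc and Prf1 up, Klrk1 and Zap70 down), 5 in TCM tumors (Cd3g, Cd8b1, Igkc, Jchain and Prf1 up) and 0 for the difference. The replicate number as a block across treatments pairs different mice and was fitted on only the groups compared, with 10 and 19 members tested. It gave 2 calls in peri-tumor tissue and 0 in tumors, where only the groups compared, with no block, gave 3 and 0.

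All genes called moved by over 1.5 times in 3 comparisons. In peri-tumor tissue (2091) there were 3349 with limma-voom, 773 with the number as a replicate block on only the groups compared (1405 on those groups with no block), 3434 without control mouse 4 and 1101 to 3228 without single libraries. In tumors (1082) there were 1805 with DESeq2, 2193 with limma-voom, 687 with no filter, 38 with the number block (786 on those groups with no block), 1877 without control mouse 4 and 404 to 1250 without single libraries. For the difference (165) there were 806, 603, 79 and 714 with DESeq2, limma-voom, no filter and without control mouse 4, 107 with the mouse block, and 58 to 665 without single libraries.

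Of 177 log2 ratios of lineage sums, 11 moved by more than the spread between libraries. For T cell genes it was 0.71 without Zap70 in control tumors (0.16), and -0.35 as a mean of log2(CPM + 0.5) in peri-tumor tissue between treatments (-0.70). For NK and cytotoxic genes it was 0.54 as a mean of log2 values and 1.88 without Klrk1 in TCM tumors (1.22), and -0.70 as a mean of log2 values between treatments in peri-tumor tissue (-1.83). For B and plasma cell genes in control tumors (0.62) it was 1.08 as FPKM, 0.34 as a mean of log2 values and 0.13 without Igkc, and between treatments in peri-tumor tissue (0.69) it was 0.29, 0.29 and 0.93. Leaving out single libraries gave, in the order control tumors, TCM tumors, peri-tumor and tumor between treatments, -0.06 to 0.30, 0.66 to 1.26, -0.84 to -0.56 and -0.21 to 0.45 for T cell genes, -0.20 to 0.40, 0.70 to 1.42, -2.15 to -1.55 and -1.24 to -0.47 for NK genes, and 0.53 to 0.68, 0.63 to 1.502, 0.53 to 0.77 and 0.71 to 1.58 for B and plasma cell genes.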

Other observations

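Of 10 lymphoid aggregate genes 5 were tested, and 3 rose and 0 fell in tumors of each treatment, where 22% (control) and 17.3% (TCM) of all tested genes were called up. Cxcl9, a chemokine that draws activated T cells, rose by 1.88 ± 0.63 on the log2 scale in control tumors (edgeR adjusted p = 0.0246) and by 2.39 ± 0.64 in TCM tumors (edgeR adjusted p = 0.00929). The control call was lost on leaving out control tumor 3, control peri-tumor 1 or control peri-tumor 4 (edgeR adjusted p = 0.0878, 0.0603 and 0.0608), and the TCM call without TCM tumor 2 (1.17, edgeR adjusted p = 0.0629). Ccl20, a chemokine for CCR6-bearing lymphocytes, was at 0 counts in all control peri-tumor libraries and had 0.831 to 1.08 CPM in control tumors, and it was called in both treatments. With 0 counts in control peri-tumor tissue, only a rise of Ccl20 could be called in control mice. Tnfrsf9, a costimulatory receptor of activated T cells, rose by 3.32 ± 0.94 (edgeR adjusted p = 0.00940) and 2.80 ± 1.02 (edgeR adjusted p = 0.0466), the latter a call lost in 8 of 13 alternatives.

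Of 8 dendritic cell markers 5 were tested. In control tumors 2 rose and 0 fell, where 22% of all tested genes were called up and 21.2% down. In TCM tumors 3 rose and 0 fell, where these shares were 17.3% and 15.6%. Itgax, an integrin of dendritic cells and some macrophages, rose by 2.81 ± 0.58 in control tumors (edgeR adjusted p = 0.000981) and 3.21 ± 0.65 in TCM tumors (edgeR adjusted p = 0.00143). Flt3, a growth factor receptor of dendritic cells, rose by 2.55 ± 0.70 (edgeR adjusted p = 0.00779) and 2.88 ± 0.80 (edgeR adjusted p = 0.0110). Cd209a, a lectin of dendritic cells, rose 4-fold in TCM tumors (edgeR adjusted p = 0.0345), a call lost in 8 of 13 alternatives. The neutrophil markers summed to 117 CPM in control tumor 4, to 5.46 to 9.77 CPM in the other 3 control tumors and to 2.96 to 12.0 CPM in TCM tumors.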
